A study of Mus musculus with 12 samples.

Results

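The AP-1 and immediate early genes described here are 10 genes taken by name: the FOS family members Fos, Fosb, Fosl1 and Fosl2, the JUN family members Jun, Junb and Jund, and Atf3, Egr1 and Ier3. Each symbol matched exactly 1 of the 57186 genes in the counts table, and all 10 passed the filter on low counts. RNA was measured in 12 mouse tumours grown from 4T1, a line of mammary carcinoma cells. In the WT group (6 tumours) the cells were parental. In the Tn group (6 tumours) the same line carried CRISPR/Cas9 silencing of Cosmc, which is the gene C1galt1c1, a chaperone needed to extend O-linked glycans, and the label Tn names the short O-glycan left when extension fails. The tumours were sampled across different sizes. Whether the silenced cells are 1 clone, and the strain, age and sex of the mice, are not given in the sources used here.

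AP-1 is a pair of bZIP proteins that binds DNA through a basic region and holds together through a leucine zipper. JUN proteins pair with each other or with a FOS partner, whereas FOS proteins need a JUN partner. Genes such as Fos, Egr1 and Ier3 are called immediate early genes because growth factors, cytokines and stress raise their transcripts within minutes through MAP kinases and serum response factor (SRF), without new protein synthesis, and their messages decay quickly. In carcinomas AP-1 is known as a driver of proteases, growth factors and cytokines, in tumour cells and in the stroma alike.

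The promoter sequences below are shown because Fos and Fosb are the classical stimulus-driven members, while Ier3 and Fosl2 were lower in Tn tumours. The stretches were read from GRCm39 upstream of the start of the canonical transcript in the GENCODE annotation, 5′ to 3′ on the strand of the gene: Fos from chr12:85520346-85520645 (plus strand), Fosb from chr7:19044129-19044262 (minus strand), Ier3 from chr17:36132493-36132542 (plus strand) and Fosl2 from chr5:32292607-32292706 (plus strand). Capitals mark matches to the CArG box bound by SRF, the NF-kB consensus or the TATA motif TATAAA.
Fos: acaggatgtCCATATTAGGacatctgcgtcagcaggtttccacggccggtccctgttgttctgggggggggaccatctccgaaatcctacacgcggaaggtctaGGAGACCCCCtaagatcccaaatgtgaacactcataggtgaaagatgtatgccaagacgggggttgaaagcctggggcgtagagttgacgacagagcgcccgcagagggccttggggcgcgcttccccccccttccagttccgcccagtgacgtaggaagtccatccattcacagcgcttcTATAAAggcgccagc
Fosb: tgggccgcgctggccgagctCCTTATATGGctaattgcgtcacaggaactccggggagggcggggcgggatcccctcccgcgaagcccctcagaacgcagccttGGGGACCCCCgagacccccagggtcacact
Ier3: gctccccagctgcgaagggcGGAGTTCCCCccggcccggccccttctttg
Fosl2: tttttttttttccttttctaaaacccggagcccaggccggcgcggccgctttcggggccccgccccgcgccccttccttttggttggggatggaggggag

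The search covered 500 bases before each start, on both strands, for the CArG box, the NF-kB consensus, TATAAA, the AP-1 site TGACTCA, the CRE TGACGTCA and the EGR site GCGTGGGCG; none of the matches in these genes overlapped another. Fos held a CArG box at bases -303 to -294 from the start, and Fosb held one at -266 to -257. NF-kB matches lay at -208 to -199 in Fos, at -182 to -173 in Fosb and at -55 to -46 in Ier3, and Fos held TATAAA at -27 to -22. Jund held TGACGTCA at -214 to -207, and Junb and Fosl1 held TATAAA at -30 to -25 and -132 to -127. Fosl2, Egr1, Jun and Atf3 held no full match to any of the 6 motifs in this window. Sites that depart from these patterns were not searched. The 100 bases of Fosl2 next to the start are shown without capitals, and the Egr1 sequence is not reported here. Among 21770 promoters of protein-coding genes searched in the same way, 2.76% held a CArG box, 12.3% the NF-kB consensus, 24.3% TATAAA, 7.57% TGACTCA, 1.96% TGACGTCA and 0.73% GCGTGGGCG. These matches describe the letters only.

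The libraries held between 113575859 and 156880766 counts. C1galt1c1 was lower in the Tn libraries, averaging 19.6 ± 3.05 CPM in WT against 11.3 ± 0.775 CPM in Tn (SD, n = 6 each), without overlap; CPM are counts scaled to library size with TMM factors. The tumour epithelium markers, which stand for the labelled carcinoma cells, were present in every library, summing to 2329 to 5041 CPM in WT and 2182 to 3791 CPM in Tn tumours, and 3 of 10 were lower in Tn. Fibroblast markers summed to 8017 to 20536 CPM in WT and 3354 to 4794 CPM in Tn tumours, with 9 of 10 lower and 1 higher. T cell markers summed to 8.71 to 25.8 CPM in WT and 52.0 to 515 CPM in Tn tumours, with 9 of 9 higher, and macrophage markers to 776 to 1207 and 1194 to 3624 CPM, with 6 of 8 higher. By the same test, given below, 19.5% of all genes tested were higher and 17.4% lower in Tn. The RNA is from whole tumours, so fewer cells of a type and less RNA per cell cannot be told apart, and the part of these cell types in the results below was not tested. Tn tumour 4 held the highest mean log2 CPM of B cell markers (7.86), Tn tumour 6 of keratinocyte markers (8.84) and WT tumour 6 of adipocyte markers (6.57) among the 12, and results were also computed without these 3 libraries.

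Of the 10 genes, 3 fell in Tn tumours, namely Fosl2, Egr1 and Ier3, and none rose (edgeR's quasi-likelihood test with p adjusted by Benjamini-Hochberg over 19255 genes, threshold 0.05). The background is high in this comparison: 36.8% of all genes tested passed, 19.5% higher and 17.4% lower in Tn. At an unadjusted edgeR p under 0.05, 4 of the 10 were lower and 1, Atf3, was higher. Atf3 ranked 8364 by p among the 19255 genes, so at least 8364 genes lay under this unadjusted limit, in either direction. Both DESeq2 and limma voom called 4 of the 10 lower, the fourth being Fosb, and 0 higher. Over all genes, DESeq2 called 3767 lower and 4113 higher, and limma voom 3754 lower and 4100 higher. The median log2 fold change over the 10 genes was -0.26, against 0.01 over all genes tested. The groups overlapped in all 10 genes, while 17.2% of the genes tested had no overlap between groups.

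**Figure D1:**
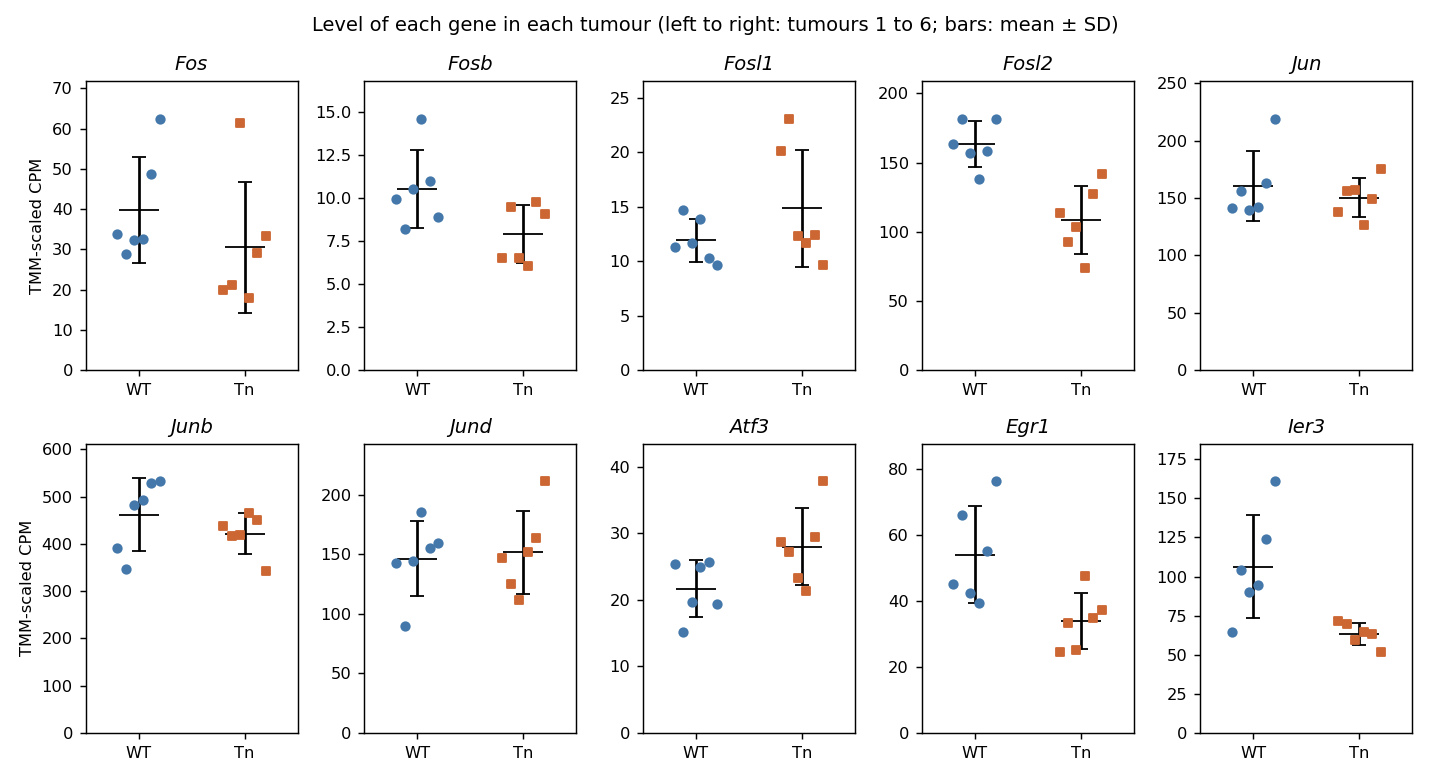
TMM-scaled CPM (vertical axis, from 0) of each of the 10 genes in the 6 WT tumours (blue circles) and 6 Tn tumours (orange squares), with mean ± SD in black. Fosl2, Egr1 and Ier3 sit lower in Tn tumours, and single tumours such as Tn tumour 3 for Fos lie far from the rest of their group.

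Fosl2 encodes FRA-2, a FOS protein without the strong activation domain of FOS (ENSMUSG00000029135, GRCm39 chromosome 5, 32293145 to 32315186, plus strand). It held 138 CPM in the lowest, 161 CPM in the median and 182 CPM in the highest WT tumour, and 73.5, 108 and 142 CPM in the Tn tumours. Of the 6 Tn tumours, 5 lay below every WT tumour, and the Tn tumour that overlapped was Tn tumour 6. The mean fell from 163 ± 16.6 to 109 ± 24.4 CPM (SD, n = 6 each), or to 66.6% of WT in the fit (log2 change -0.59 ± 0.14, SE, edgeR adjusted p = 0.00581). Fosl2 passed in all 21 refits, between -0.67 and -0.49.

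Fos encodes the founding member of the family, with the fastest rise and decay (ENSMUSG00000021250, chromosome 12, 85520664 to 85524047, plus strand). WT tumours held 29.0 CPM at the lowest, 33.2 at the median and 62.5 at the highest, and Tn tumours 18, 25.1 and 61.4 CPM. Tn tumour 3 alone sat at the top of its group, near the highest WT tumour, while 3 Tn tumours lay below all WT tumours. With means of 39.8 ± 13.1 and 30.5 ± 16.2 CPM (SD, n = 6 each), the log2 fold change was -0.38 ± 0.30 (SE, edgeR adjusted p = 0.341), with a 95% interval from 48.5% to 121% of the WT level. This outcome depended on Tn tumour 3: without it the log2 fold change was -0.71 (edgeR adjusted p = 0.0348), and without Tn tumours 4 and 6 and WT tumour 6 it was -0.09 (edgeR adjusted p = 0.855). The coefficient of variation of Fos, 32.8% in WT and 53.3% in Tn tumours, was the highest of the 10 genes in both groups.

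Fosb encodes a protein closely related to FOS (ENSMUSG00000003545, chromosome 7, 19036621 to 19043976, minus strand). Its levels were 8.20, 10.2 and 14.6 CPM in the lowest, median and highest WT tumour, and 6.05, 7.80 and 9.75 CPM in Tn tumours. All 6 Tn tumours lay below the WT median and 3 lay under the lowest WT value. The log2 fold change of -0.41 ± 0.17 (SE) did not pass (edgeR adjusted p = 0.072), with an interval from 58.2% to 96.7% of the WT level. Fosb lay near the threshold: it passed with DESeq2 (-0.42, adjusted p = 0.0426), limma voom (-0.53, adjusted p = 0.0248), upper-quartile scaling (-0.47, edgeR adjusted p = 0.0481) and a filter at a mean of 1 CPM (-0.46, edgeR adjusted p = 0.0453).

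Fosl1 encodes FRA-1, the FOS protein tied to invasive mammary carcinoma (ENSMUSG00000024912, chromosome 19, 5497575 to 5505974, plus strand). It held 9.70 CPM at the lowest, 11.5 at the median and 14.7 at the highest in WT, and 9.63, 12.4 and 23.1 CPM in Tn tumours. Tn tumours 1 and 2, at 20.1 and 23.1 CPM, lay above all WT tumours, and the other 4 lay within or just below the WT range. The log2 fold change was 0.32 ± 0.21 (SE, edgeR adjusted p = 0.255), with an interval from 90.9% to 171% of the WT level. The counts of Fosl1 are incomplete: 1163 of its 2033 exon bases are shared with exons of Ccdc85b on the opposite strand, strand was not used in counting, and under the options in the header reads over shared bases count for neither gene. Ccdc85b itself rose by 0.56 ± 0.09 on the log2 scale (SE, edgeR adjusted p = 0.000619), and since strand was not used its reads and those of Fosl1 cannot be told apart where the genes overlap.

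The JUN family showed no change that passed. Junb, which often opposes JUN in growth control (ENSMUSG00000052837, chromosome 8, 85701113 to 85705347, minus strand), held 346, 488 and 532 CPM in the lowest, median and highest WT tumour, and 343, 428 and 464 CPM in Tn tumours. Its log2 fold change was -0.13 ± 0.11 (SE, edgeR adjusted p = 0.382), with an interval from 76.9% to 108% of the WT level. All 6 Tn tumours lay below the WT median, but 2 WT tumours, 1 and 2, lay below most Tn tumours.

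Jun, the strongest activator of the family (ENSMUSG00000052684, chromosome 4, 94937271 to 94940459, minus strand), held 140, 149 and 219 CPM in the lowest, median and highest WT tumour and 126, 153 and 176 CPM in Tn tumours. The groups lay on top of each other apart from WT tumour 6, which held the highest value. The log2 fold change was -0.09 ± 0.12 (SE, edgeR adjusted p = 0.57), with an interval from 78.8% to 111.9% of the WT level. Its sign turned without WT tumour 6, to 0.02 (edgeR adjusted p = 0.88).

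Jund, the member expressed most steadily in resting cells (ENSMUSG00000071076, chromosome 8, 71151599 to 71153265, plus strand), held 89.98, 150 and 185 CPM in WT and 111, 149 and 211 CPM in Tn tumours at the lowest, median and highest. The medians of the groups were close, with WT tumour 2 lowest and Tn tumour 6 highest of the 12. The log2 fold change was 0.05 ± 0.17 (SE, edgeR adjusted p = 0.833), with an interval from 79.9% to 135% of the WT level. Of its 1667 exon bases, 877 are shared with the antisense gene Gm11175, which has 0 counts in every library, so reads over these bases were lost. Smaller stretches are shared by Jun with Junos (232 bases) and by Junb with Prdx2 (173 bases), both on the opposite strand.

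Atf3 encodes a stress-induced bZIP protein that pairs with JUN proteins and can repress or activate (ENSMUSG00000026628, chromosome 1, 190902493 to 190950236, minus strand). WT tumours held 15.2, 22.3 and 25.6 CPM at the lowest, median and highest, and Tn tumours 21.3, 28.0 and 37.8 CPM. Of the 6 Tn tumours, 4 lay above every WT tumour. The log2 fold change of 0.37 ± 0.16 (SE) did not pass (edgeR adjusted p = 0.0853), with an interval from 102% to 163% of the WT level. Atf3 passed in 1 of the 21 refits, without Tn tumour 4 (0.44, edgeR adjusted p = 0.0409).

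Egr1 encodes a zinc finger transcription factor that MAP kinase signalling induces through SRF (ENSMUSG00000038418, chromosome 18, 34992876 to 34998037, plus strand). It held 39.2, 50.1 and 76.1 CPM in the lowest, median and highest WT tumour, and 24.6, 34.1 and 47.4 CPM in Tn tumours. Of the Tn tumours, 5 lay below every WT tumour, and Tn tumour 4 was the one that overlapped. The mean fell from 54.0 ± 14.6 to 33.7 ± 8.47 CPM (SD, n = 6 each), or to 62.5% of WT in the fit (log2 change -0.68 ± 0.20, SE, edgeR adjusted p = 0.018). Egr1 passed in all 21 refits, between -0.79 and -0.55.

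Ier3, also known as IEX-1, encodes a small protein that affects survival under stress and sustains ERK signalling (ENSMUSG00000003541, chromosome 17, 36132576 to 36133815, plus strand). It held 64.8, 99.2 and 161 CPM in the lowest, median and highest WT tumour, and 52.0, 64.0 and 71.5 CPM in Tn tumours. The Tn values lay close together and the WT values were spread out: the coefficient of variation was 31.0% in WT and 11.2% in Tn tumours. WT tumour 1, at 64.8 CPM, lay inside the Tn range, and 4 Tn tumours lay below it. The mean fell from 106 ± 33.0 to 63.4 ± 7.12 CPM (SD, n = 6 each), or to 59.6% of WT in the fit (log2 change -0.75 ± 0.18, SE, edgeR adjusted p = 0.00629). Ier3 passed in all 21 refits, and its smallest change, -0.52, was without Tn tumours 4 and 6 and WT tumour 6 (edgeR adjusted p = 0.032).

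**Figure D2:**
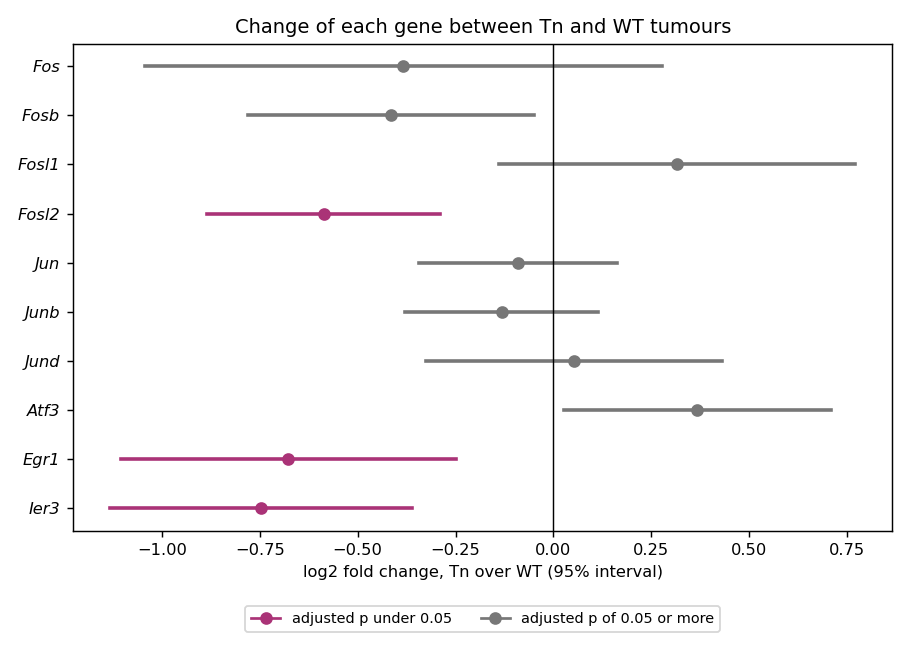
Log2 fold change of Tn over WT (horizontal axis) with its 95% interval for each of the 10 genes, in purple where the edgeR adjusted p is under 0.05 and in grey otherwise. Fosl2, Egr1 and Ier3 lie to the left of 0, while the intervals of Jun, Junb and Jund span it.

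Levels of different genes were compared per kilobase of exon. With the deposited lengths, Junb was the highest in WT tumours, at 201 ± 33.3 CPM per kilobase (SD, n = 6), above 99.1% of the genes tested. Ier3 (94.1 ± 29.1) and Jund (87.7 ± 18.9) came next and did not differ beyond their spread, then Jun (50.2 ± 9.53). Fos (16.9 ± 5.56), Fosl2 (16.9 ± 1.71), Egr1 (12.04 ± 3.27) and Atf3 (10.1 ± 1.98) formed a lower group whose neighbours overlapped. Fosl1 (5.88 ± 0.976) and Fosb (1.69 ± 0.359) were the lowest, with Fosb above 42.5% of the genes tested. With the bases that no other gene shares, a scale chosen after seeing the file, Jund rose to 185 ± 39.8 CPM per kilobase, within the spread of Junb at 217 ± 36.0, and Fosl1 rose to 13.7 ± 2.28, beside Fos and Fosl2. On this scale the order of Fosl1 and Fosl2 differed between the groups: in Tn tumours Fosl1 was at 17.1 ± 6.20 and Fosl2 at 11.2 ± 2.52 CPM per kilobase (SD, n = 6), which overlapped.

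As shares of the FOS family on the unshared scale, Fosl2 made up 34.4% ± 2.94 in WT and 26.7% ± 6.00 in Tn tumours, and Fosl1 28.3% ± 6.03 and 40.5% ± 12.9 (SD, n = 6 each). Fos made up 33.9% ± 7.83 and 29.8% ± 11.7, and Fosb 3.48% ± 0.918 and 3.03% ± 0.690. The spread between Tn tumours was large, with Fosl1 between 26.8% and 56.9% of the family. With the deposited lengths the Fosl1 share was 14.6% ± 3.63 in WT and 23.3% ± 9.53 in Tn tumours (SD, n = 6 each). The ratio of Fosl1 to Fosl2 counts, which no scaling between libraries can move, was 0.074 ± 0.016 in WT and 0.145 ± 0.0647 in Tn tumours (SD, n = 6 each), and 4 of the 6 Tn tumours lay above every WT tumour. Whether the changes of Fosl1 and Fosl2 differ was not tested. In the JUN family the shares were close in both groups: Junb made up 47.7% ± 2.31 and 45.3% ± 6.23, Jund 40.3% ± 3.93 and 43.1% ± 6.40, and Jun 12.1% ± 2.51 and 11.6% ± 1.59 of the WT and Tn sums.

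**Figure D3:**
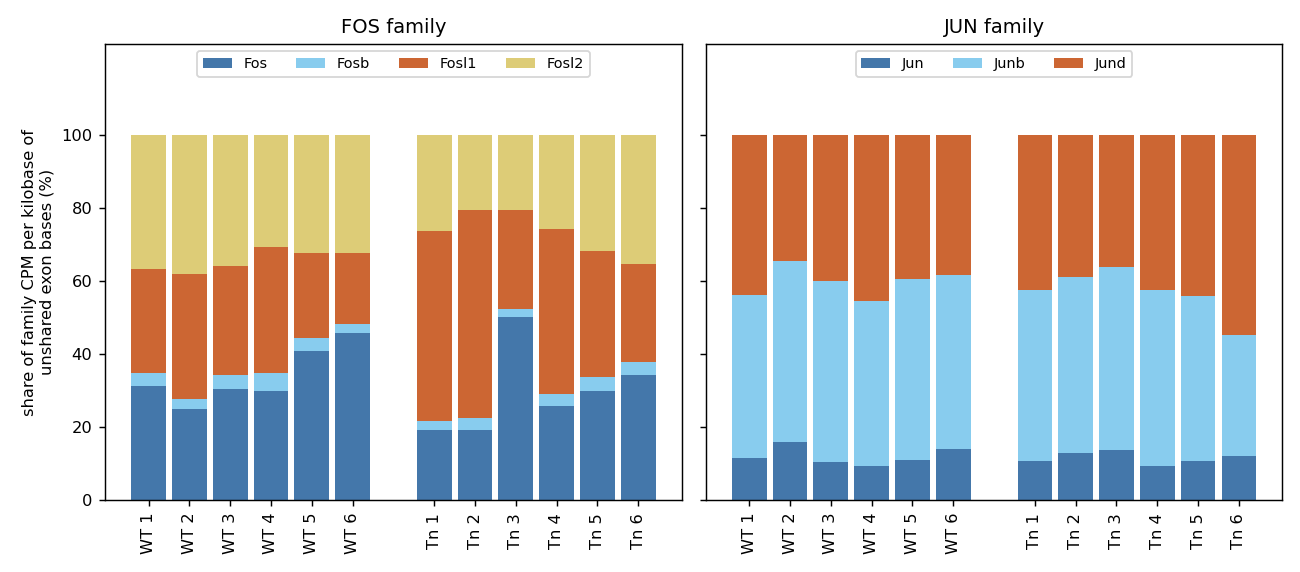
Share of each gene in the FOS family (left) and the JUN family (right), in percent of the family sum of CPM per kilobase of unshared exon bases, as stacked bars for each tumour. Fosl1 takes 19.3% to 34.4% of the FOS sum in WT tumours and 26.8% to 56.9% in Tn tumours, and Tn tumour 6 has the lowest Junb share, 33.0%.

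Pooled over both groups, deviations of the 10 genes from their group means did not move as a block. Log2 CPM was centred on each group mean, and correlations were computed over the 12 tumours for all 45 pairs. Of these pairs, 27 correlated positively and 18 negatively, with a median r of 0.05. By permutation of tumours within groups, 4 pairs had an unadjusted p under 0.05 for Pearson's r and 2 for Spearman's rho, and none passed after adjustment over the 45 pairs. The closest were Jund with Atf3 (r = 0.76, permutation p = 0.00801, adjusted p = 0.258; rho = 0.58, permutation p = 0.0647, adjusted p = 0.523) and Fos with Jun (r = 0.67, permutation p = 0.0115, adjusted p = 0.258; rho = 0.70, permutation p = 0.0146, adjusted p = 0.362). Without the 2 tumours farthest from the median, r was 0.45 for Jund with Atf3 and 0.66 for Fos with Jun. With 6 tumours in each group, r was 0.87 in WT and 0.60 in Tn tumours for Fos with Jun. Signs differed for Jun with Ier3 (0.87 and -0.65) and Fos with Ier3 (0.77 and -0.62), picked after their values were seen. Opposite signs make the pooled r small, and whether r differs between the groups was not tested. All values share the library and its scaling.

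The genes whose deviations from the group means followed each of the 3 lower genes most closely are given as a description, over the 12 tumours and among 13985 genes with a mean of at least 1 CPM. For Fosl2 they were Ergic3 (r = 0.95), Slc16a1 (r = 0.92), which encodes a lactate transporter, and Gnb5 (r = 0.92). These 3 genes rose in Tn tumours, with log2 fold changes of 0.53, 0.62 and 0.57 (edgeR adjusted p = 0.00065, 0.00755 and 0.00725), while Fosl2 fell. For Egr1 they were Pla2r1 (r = 0.90), the stress-induced phosphatase regulator Ppp1r15a (r = 0.90) and A4galt (r = 0.90), with log2 fold changes of -0.50, -0.26 and -0.62 that did not pass (edgeR adjusted p = 0.071, 0.141 and 0.0626). Pla2r1 and A4galt lay near the threshold: both passed with DESeq2 (adjusted p = 0.0374 and 0.0321), with upper-quartile scaling (edgeR adjusted p = 0.0494 and 0.0477), without WT tumour 1 (0.0495 and 0.043) and without Tn tumour 4 (0.041 and 0.0257). A4galt also passed with limma voom (adjusted p = 0.032) and a filter at a mean of 1 CPM (edgeR adjusted p = 0.0491). For Ier3 they were Cd1d1 (r = 0.98), an antigen-presenting molecule for lipids, Smim27 (r = 0.94) and the caveolar protein gene Cav1 (r = 0.93). Cd1d1 was at 0.85 (edgeR adjusted p = 0.0261), a call that was lost without WT tumour 3 (0.78), WT tumour 4 (0.78) or Tn tumour 1 (0.79) and with the replicate number as a block (0.96, edgeR adjusted p = 0.0508).

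The first neighbours of the other genes were Irx3 for Fos (r = 0.92), Slc35e4 for Fosb (r = 0.87), Tinagl1 for Fosl1 (r = 0.96), Kat2a for Jun (r = 0.90), Hsd11b1 for Junb (r = 0.92), the ribosomal protein gene Rps12 for Jund (r = 0.91) and Trip10 for Atf3 (r = 0.93). The next neighbours were Mrps31 (r = 0.89) and Nif3l1 (r = 0.89) for Fos, Mir503hg (r = 0.86) and Rab11fip5 (r = 0.86) for Fosb, and Slc39a13 (r = 0.93) and Steap1 (r = 0.93) for Fosl1. They were Rpe (r = 0.90) and Pex11a (r = 0.90) for Jun, Msra (r = 0.91) and Smyd3 (r = 0.90) for Junb, Rps23 (r = 0.90) and Pym1 (r = 0.90) for Jund, and Katna1 (r = 0.91) and Sgsm2 (r = 0.90) for Atf3. None of these 30 was shared by a pair of the 10 genes. With only 3 neighbours taken for each from 13985 genes, sharing was unlikely from the start. The largest r of so many genes over 12 tumours is high by selection, so these values are a description only.

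The MAP kinase cascade lies upstream of these genes, and its transcripts were measured but not its kinase activity. Of 27 cascade genes tested, 3 were higher and 4 lower in Tn, with a median log2 fold change of 0.05. Over all genes tested, 19.5% were higher and 17.4% lower. Map2k4, a kinase of the JNK branch, changed by -0.27 (edgeR adjusted p = 0.00474) and the ERK5 gene Mapk7 by 0.36 (edgeR adjusted p = 0.0272). The call of Mapk7 was lost without WT tumour 6 (0.33, edgeR adjusted p = 0.056), with upper-quartile scaling (0.31, edgeR adjusted p = 0.0566) and with the replicate number as a block (0.35, edgeR adjusted p = 0.0674). Of 12 regulators that act at immediate early promoters, 4 were higher and 5 lower, with a median of 0.02. Elk3, a ternary complex factor that works with SRF, fell from 363 ± 24.3 to 229 ± 21.2 CPM (SD, n = 6 each; log2 fold change -0.67 ± 0.07, SE, edgeR adjusted p = 6.42e-05), and Mrtfb, an SRF coactivator, changed by -0.58 (edgeR adjusted p = 0.000207). Creb1, which binds the CRE, changed by -0.25 (edgeR adjusted p = 0.00597), and Nab1, a corepressor of EGR proteins, by 0.31 (edgeR adjusted p = 0.00334).

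Among 34 other immediate early genes tested of 35 listed, 6 were higher and 10 lower in Tn, with a median log2 fold change of -0.12. The shares over all genes tested were 19.5% higher and 17.4% lower. Ccn1 and Ccn2, secreted matrix-associated proteins, fell by 1.11 ± 0.18 and 1.57 ± 0.30 on the log2 scale (SE, edgeR adjusted p = 0.000687 and 0.00193), each with all Tn tumours below all WT tumours. Ier5 rose by 0.54 (edgeR adjusted p = 0.000137) and Cebpb, a bZIP factor of myeloid cells and inflammation, by 1.12 (edgeR adjusted p = 0.00165). Ier5, at 73.0 to 86.1 CPM in WT and 102 to 129 CPM in Tn tumours, did not overlap between the groups, and it moved opposite to Egr1 and Ier3.

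Of 14 other bZIP partners, 6 were higher and 4 lower (19.5% and 17.4% of all genes tested), with a median of 0.35. Batf3, Batf and Batf2, which pair with JUN proteins in immune cells, rose from 2.66 ± 0.423 to 7.07 ± 2.06 CPM, from 2.20 ± 0.528 to 5.86 ± 2.78 CPM and from 10.1 ± 5.98 to 36.7 ± 14.9 CPM (SD, n = 6 each). Their log2 fold changes were 1.41, 1.42 and 1.86 (edgeR adjusted p = 0.000265, 0.00296 and 0.0116). Jdp2, a repressor that pairs with JUN, fell by 0.61 on the log2 scale (edgeR adjusted p = 0.00718), but not without Tn tumours 4 and 6 and WT tumour 6 (-0.46, edgeR adjusted p = 0.0702). T cell and macrophage markers were higher in the same Tn tumours, as given above, and their part in the rise of the Batf genes was not tested.

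Of 20 feedback inhibitors and mRNA decay factors, 2 were higher and 7 lower (19.5% and 17.4% of all genes tested), with a median of -0.23. Dusp8, a phosphatase of JNK and p38, fell from 12.98 ± 2.58 to 3.49 ± 0.923 CPM (SD, n = 6 each; log2 fold change -1.89 ± 0.19, SE, edgeR adjusted p = 3.9e-05), and Dusp10, which acts on the same kinases, rose from 9.86 ± 2.55 to 23.4 ± 7.31 CPM (1.25 ± 0.23, edgeR adjusted p = 0.00137). Neither gene overlapped between the groups. Spred3, an inhibitor of the RAS pathway, changed by -0.83 (edgeR adjusted p = 0.00204) and Zfp36l2, which promotes decay of AU-rich messages, by 0.43 (edgeR adjusted p = 0.00193).

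Of 27 textbook targets of AP-1 and EGR1, 1 was higher and 16 were lower in Tn, with a median log2 fold change of -0.63. Among all genes tested, 19.5% were higher and 17.4% lower. The matrix protein gene Tnc (-2.32, edgeR adjusted p = 8.28e-06), the growth factor gene Fgf2 (-1.98, edgeR adjusted p = 4.82e-05), the metalloproteinase gene Mmp10 (-2.20, edgeR adjusted p = 0.000287) and the protease inhibitor gene Timp1 (-1.51, edgeR adjusted p = 0.000407) led the falls. Pdgfa was the 1 that rose (0.63, edgeR adjusted p = 0.00576). Tnc, Fgf2, Mmp10 and Timp1 were named for their smallest p, and each fell more than Fosl2, Egr1 or Ier3. Not all of the other lower targets did so. Stromal cells also express several of these targets, and stromal markers were lower in the same tumours: 9 of 10 for fibroblasts (median -1.32), 6 of 8 for pericytes and smooth muscle (median -1.67) and 7 of 8 for endothelium (median -0.78). The pericyte and smooth muscle markers summed to 454 to 832 CPM in WT and 185 to 481 CPM in Tn tumours, and the endothelial markers to 296 to 530 and 200 to 389 CPM. The part of these cell types in the result was not tested.

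Heat shock and chaperone genes, which respond to stress of the tissue, were listed as a sign of tumour handling. Of 12 tested, 1 was higher and 3 lower in Tn (19.5% and 17.4% of all genes tested), with a median of -0.07. Their sum ran from 6183 to 7700 CPM in WT and from 6063 to 7194 CPM in Tn tumours. Hsp90aa1 (-0.45), Hsph1 (-0.45) and Hspa1b (-0.63) fell, while Dnajb1 (0.19) rose (edgeR adjusted p = 0.00291, 0.0273, 0.0324 and 0.0357). Only the call of Hsp90aa1 held with each tumour left out: Hsph1 was lost without WT tumours 2 or 6 or Tn tumours 2, 3 or 6, Hspa1b without WT tumours 4, 5 or 6 or Tn tumours 1, 2, 3 or 4, and Dnajb1 without WT tumours 1 or 2 or Tn tumours 1, 2 or 5. Their highest edgeR adjusted p among these was 0.0668, 0.0697 and 0.0754, and with the block Hsph1 (0.0508) and Dnajb1 (0.0953) did not pass. Within groups, the levels of this list and of 11 marker lists were set against Fosl2, Egr1 and Ier3 in 36 relations. By permutation within groups, 7 had an unadjusted p under 0.05 for r and 4 for rho, and none passed after adjustment (lowest adjusted p = 0.107). The closest was Ier3 with the adipocyte markers (r = 0.83, permutation p = 0.00577, adjusted p = 0.107), at 0.88 in WT and 0.65 in Tn tumours. Fosl2 with the T cell markers followed (r = -0.79, permutation p = 0.00832, adjusted p = 0.107), at -0.33 in WT and -0.92 in Tn tumours. Next came Fosl2 with the heat shock list (r = 0.73, permutation p = 0.00893, adjusted p = 0.107), at 0.32 in WT and 0.95 in Tn tumours. For Ier3 with this list r was 0.45 (0.93 in WT and -0.52 in Tn tumours), and for Egr1 0.29 (0.65 and -0.06). The part of handling, or of these cell types, in the 3 lower genes was not tested.

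**Figure D4:**
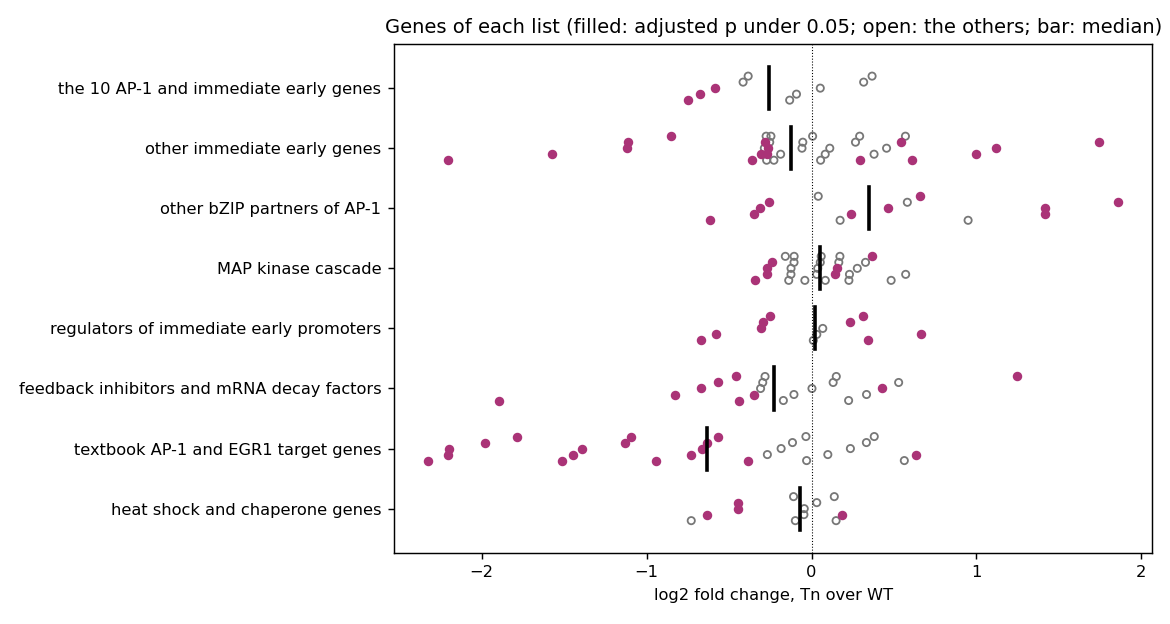
Log2 fold change of Tn over WT (horizontal axis) for each tested gene of the 10 and of 7 related lists, with filled points for an edgeR adjusted p under 0.05, open points for the others and a black bar at the median of each list. The medians lie between -0.63 for the AP-1 and EGR1 targets and 0.35 for the other bZIP partners.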

How the data were processed

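RNA of 12 tumours, 6 WT and 6 Tn, was sequenced from poly(A) libraries in 1 labelled batch. The submitters' processing notes name fastp 0.23, STAR 2.7.11a, Subread 2.1.1 with featureCounts, and the build GRCm39. What the authors deposited are raw counts per gene, made, per the file headers, over exons of Ensembl release 112, without strand, without options for reads that overlap several genes, and without counting a pair once, so both mates can add a count. Between 74.8% and 80.1% of low counts were even numbers. Gene names for 56630 of 57186 identifiers came from a later GRCm39 annotation.

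Counts were tested with edgeR 4.0.16 in R 4.3.3 (TMM scaling, filterByExpr, robust quasi-likelihood fits, 19255 genes, Benjamini-Hochberg threshold 0.05). Log2 fold changes are Tn over WT, and each SE was derived from the fold change and its F statistic. Counts were also simulated from these tumours over 19000 genes, with changes put into a small part of those averaging at least 1 CPM. Of these changes, 42.4% of 1.5-fold, 79.1% of 2-fold and 92.5% of 4-fold ones were recovered, with 5 false calls. In the tumours 36.8% of genes passed, a far larger part, so these rates check the code and do not carry over. Correlations used scipy 1.17.1 with 100000 permutations. Alternatives were DESeq2 1.42.0, limma voom (limma 3.58.1), upper-quartile or RLE factors, other filters, counts divided by 2, the replicate number as a block, and tumours left out. All 10 genes, the 4 genes with the smallest p of each related list and the 3 nearest neighbours of each of the 10 genes were named where they averaged 1 CPM or more; Pdgfa was named after its values were seen. Of the MAP kinase list, 2 genes that this rule names are not reported here. Members and lists were chosen with earlier results of these data known. Library pairs of a group differed by more than sampling noise (lowest chi-square over its degrees of freedom, 37.4). The labels call the tumours biological replicates but do not name separate mice. Library numbers were lower for all Tn than for all WT tumours, and an effect of that order cannot be told apart from the group.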

Additional observations from a re-analysis of the deposited data

Results flagged for a closer look

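Of 20 sets of 6 tumours, 1 for each gene and group, 3 held a tumour whose gap to its nearest neighbour was large against the range of its group (0.656, 0.636 and 0.638 of the range). Chance gives this in about 1 in 20 sets. Jun was highest in WT tumour 6, at 7.78 log2 CPM (219 CPM). Junb was lowest in Tn tumour 6, at 8.42 log2 CPM (343 CPM). Jund was lowest in WT tumour 2, at 6.49 log2 CPM (89.98 CPM).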

How the results depend on the processing

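Fosl2, Egr1 and Ier3 kept their direction and passed in all 21 refits at the threshold of 0.05; at 0.01, Egr1 (adjusted p = 0.018) did not pass. The genes called changed with the threshold of 0.01, to 2109 higher and 1916 lower. With each tumour left out in turn, 3210 to 3778 genes were higher and 2833 to 3283 lower, and of the 10 genes 0 to 1 were higher and 3 to 4 lower, the 1 being Atf3 without Tn tumour 4. With upper-quartile scaling 3094 were higher and 3844 lower. With the replicate number as a block, 2998 genes were higher and 2878 lower, and 3 of the 10 genes were lower and 0 higher. No label ties a WT to a Tn tumour of the same number. Deviations of same-numbered tumours correlated between -0.125 and 0.158, and no WT tumour correlated best with the Tn tumour of its number. Such correlations cannot show whether same-numbered tumours were matched in another way. Signs turned only for values that did not pass. Jun was at 0.033 without Tn tumours 4 and 6 and WT tumour 6 (the 3 libraries below) and between -0.14 and 0.0196 with single tumours left out. Jund was at -0.000244 with upper-quartile scaling, -0.067 with limma voom, -0.052 without the 3 libraries and between -0.061 and 0.13 with single tumours left out. Among the neighbours, Nif3l1 (0.0147), Slc39a13 (0.047) and Trip10 (0.00566) turned without the 3 libraries, as did Egr3 (-0.045), and Tinagl1 (-0.068) with the block. With single tumours left out the ranges were -0.0665 to 0.36 for Irx3, -0.12 to 0.00335 for Nif3l1, -0.13 to 0.23 for Tinagl1, -0.17 to 0.0123 for Slc39a13, -0.46 to 0.0105 for Steap1, -0.0285 to 0.0178 for Trip10, -0.031 to 0.39 for Cav1 and -0.17 to 0.0385 for Egr2. The causes were not tested. Depth did not limit these genes, whose lowest value was 6.05 CPM, but lost reads over shared exons limit Fosl1 and Jund.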

Other observations

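Close relatives of the genes that fell did not all move with them; these genes were chosen after their values were seen. Egr2 averaged 29.6 ± 5.22 CPM in WT against 28.4 ± 8.43 CPM in Tn (log2 fold change -0.06, edgeR adjusted p = 0.83), and Egr3 at 11.3 ± 0.989 and 14.6 ± 6.75 CPM (0.38, edgeR adjusted p = 0.235; SD, n = 6 each). Ier2, a small immediate early gene, was at 78.3 ± 12.3 and 81.3 ± 7.46 CPM (0.06, edgeR adjusted p = 0.699), and the nuclear receptor gene Nr4a1 at 20.6 ± 2.95 and 17.1 ± 2.75 CPM (-0.28, edgeR adjusted p = 0.0988). Dusp1, the phosphatase that is induced together with Fos, fell by 0.46 ± 0.15 on the log2 scale (SE, edgeR adjusted p = 0.0273), a call lost without WT tumours 5 or 6 or Tn tumours 2, 3 or 4 (edgeR adjusted p up to 0.06). Ptgs2, which encodes the inducible cyclooxygenase, fell by 1.12 ± 0.22 (SE, edgeR adjusted p = 0.00242). Nab2, an EGR corepressor that EGR1 induces, rose from 37.2 ± 4.58 to 58.9 ± 19.2 CPM (SD, n = 6 each; 0.66, edgeR adjusted p = 0.0103) without overlap between the groups, while Egr1 fell.

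Exons on the opposite strand of 2 of the JUN genes belong to genes with levels of their own. Prdx2, which shares exon bases with Junb, rose by 0.46 ± 0.10 on the log2 scale (SE, edgeR adjusted p = 0.00319). Junos, antisense to Jun, averaged 5.87 ± 1.54 CPM in WT against 7.56 ± 1.60 CPM in Tn (SD, n = 6 each; 0.37, edgeR adjusted p = 0.135), and passed with limma voom (0.45, adjusted p = 0.0235) and without WT tumour 1 (0.53, edgeR adjusted p = 0.0209).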
